A study of Mus musculus with 32 samples.

Results

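Pkd1 and 6 other genes whose mutation causes cystic kidney disease (Pkd2, Pkhd1, Ganab, Dnajb11, Tsc1 and Tsc2) were followed through mouse kidneys with and without a deletion of Pkd1 itself. The members were taken by name, 7 of the 53700 genes in the count table, and all 7 were among the 13961 genes with enough reads to be tested. RNA of 32 kidneys from male C57BL/6 mice was sequenced: 8 wildtype, 12 PKD and 12 PKD + Salsalate. The PKD and PKD + Salsalate mice (iKspCre-Pkd1del) carried a tamoxifen-inducible Cre that acts in kidney tubules and loxP sites around exons 2 to 11 of Pkd1. Both were gavaged with tamoxifen at 150 mg/kg on postnatal days 18 and 19 and were 95 days old at collection. The PKD + Salsalate mice ate chow with 2.5 g/kg salsalate, a prodrug of salicylate, for the last 2 weeks, from day 81. The wildtype mice were untreated, received no tamoxifen and are labelled as 109 days old, although the protocol has every mouse collected at day 95. Exons 2 to 11 are listed as floxed for the wildtype kidneys too, and the study does not state which alleles those mice carried. Deletion and tamoxifen, age if the label holds, and any difference in alleles come together and cannot be told apart. The Cre acts in tubules only, so that the other cells of a PKD kidney are not targeted by the induced deletion. The study writes the genotype with both a deleted and a floxed form of Pkd1. It does not state whether the other cells carried a deleted allele.

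Pkd1 encodes polycystin-1, a large receptor-like membrane protein, and Pkd2 encodes polycystin-2, the cation channel that it binds; both act at the primary cilium of tubule cells, and loss of either causes autosomal dominant polycystic kidney disease. Pkhd1 encodes fibrocystin, the ciliary membrane protein lost in autosomal recessive disease. Ganab (glucosidase II alpha subunit) and Dnajb11 (an Hsp40 co-chaperone) work in the endoplasmic reticulum, where polycystin-1 matures, and their mutation gives milder dominant disease. Tsc1 (hamartin) and Tsc2 (tuberin) form the complex that restrains mTORC1, and Tsc2 lies next to Pkd1, so that a deletion of both genes gives severe early cysts.

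Whether the deletion can be read from these data follows from the sequence of Pkd1 (ENSMUSG00000032855, GRCm39 chr17:24768808-24815482, plus strand). The canonical transcript has 46 exons and 14164 bp, of which the 10 floxed exons hold 2620 bp, or 18.5%. The other 36 exons remain, so a read count over the whole gene still collects 81.5% of the transcript's length from a deleted allele. The level of Pkd1 alone is therefore no check of the deletion, and the stability of a transcript from a deleted allele was not measured. The length of the floxed exons leaves a remainder of 1 base when divided into codons. The junctions are shown because they make this visible, with the first stop codon of the joined reading in capitals.
Pkd1 exon 1, last 30 bases (chr17:24769422-24769451, plus strand): tctgcgcatcccggctgacgccaccgcgct
Pkd1 exon 2, first 30 bases, floxed (chr17:24783124-24783153, plus strand): agacctgtcccacaacctacttcagacgct
Pkd1 exon 12, first 19 bases (chr17:24790154-24790172, plus strand): cggtacagccccatggTAG
Read across exon 1 and exon 12, the frame runs for 77 codons before that stop, against 4293 codons in the intact frame. The counts hold no junction reads, so how much transcript carried this junction was not measured.

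The promoters of Pkhd1, Dnajb11 and Pkd1 are shown as examples of windows that hold at least 1 of 3 short motifs and differ in composition. Pkd2, which like these 3 genes had higher read counts in PKD kidneys, held none of the motifs. A link between motifs and read counts was not tested. Each window holds the 250 bases before and 50 bases after the annotated start, from RefSeq on build GRCm38.p6, where all 7 members had an entry. Capitals mark GTTAAT (the core of sites bound by HNF1, a tubule transcription factor) in Pkhd1, CCAAT (the CCAAT box) in Dnajb11 and GGGCGG (the GC box) in Pkd1, each searched on both strands, so that ATTGG marks a CCAAT box on the other strand and CCGCCC a GC box.
Pkhd1 promoter (GRCm38.p6 chr1:20618008-20618307, minus strand): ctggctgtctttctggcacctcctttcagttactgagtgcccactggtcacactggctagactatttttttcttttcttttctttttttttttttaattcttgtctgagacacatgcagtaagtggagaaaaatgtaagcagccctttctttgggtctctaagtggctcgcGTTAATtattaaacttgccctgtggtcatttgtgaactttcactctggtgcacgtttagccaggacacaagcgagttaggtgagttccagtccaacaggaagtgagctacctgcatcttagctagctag
Dnajb11 promoter (GRCm38.p6 chr16:22857595-22857894, plus strand): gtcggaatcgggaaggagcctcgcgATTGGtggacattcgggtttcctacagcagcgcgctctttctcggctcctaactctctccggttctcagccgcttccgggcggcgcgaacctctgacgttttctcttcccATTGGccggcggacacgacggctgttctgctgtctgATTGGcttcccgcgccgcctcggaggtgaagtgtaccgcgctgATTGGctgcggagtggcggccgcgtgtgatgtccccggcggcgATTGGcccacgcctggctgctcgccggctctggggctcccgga
Pkd1 promoter (GRCm38.p6 chr17:24549700-24549999, plus strand): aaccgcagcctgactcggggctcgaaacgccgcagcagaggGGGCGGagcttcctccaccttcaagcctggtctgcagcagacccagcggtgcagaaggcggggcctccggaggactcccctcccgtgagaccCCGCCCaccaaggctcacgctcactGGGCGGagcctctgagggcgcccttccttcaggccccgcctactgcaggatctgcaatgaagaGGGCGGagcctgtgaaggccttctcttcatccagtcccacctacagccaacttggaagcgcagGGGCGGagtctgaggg
GTTAAT was found in 1 member, Pkhd1, and in 7.1% of 32851 promoters. CCAAT was found in 2 members, Ganab and Dnajb11, with 5 matches in Dnajb11, and in 37.4% of promoters. GGGCGG was found in 3 members, Pkd1, Ganab and Dnajb11, with 5 matches in Pkd1, and in 35.7% of promoters. The GC content of the members' windows ran from 43.3% in Pkhd1 to 66.7% in Pkd1, beside a median of 52.7% over all promoters.

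The libraries held 11193136 to 109807664 reads on genes, with the largest total in PKD + Salsalate replicate 3. Levels below are CPM, read counts scaled to a common library size of 1e6 reads, with factors from TMM, the trimmed mean of M-values, and a gene was called at an adjusted p under 0.05 in edgeR's quasi-likelihood test over all genes tested. The wildtype kidneys were not uniform. The names of 5 wildtype libraries end in R, whereas those of the other 3 and of all 24 PKD and PKD + Salsalate libraries do not, and the labels do not say what R marks. Reads outside annotated exons took 13.2% to 15.7% of the 5 libraries with R and 7.60% to 9.77% of the 3 without; the range was 7.65% to 16.4% in PKD and 7.87% to 11.9% in PKD + Salsalate. Between these wildtype sets 48.1% of all genes tested were called. Among the members, Pkhd1 (log2 difference -0.53, adjusted p = 0.000121), Ganab (-0.67, adjusted p = 6.29e-06) and Dnajb11 (-0.71, adjusted p = 7.71e-07) were lower in the libraries with R. Pkd1 (-0.30), Pkd2 (-0.17), Tsc1 (-0.12) and Tsc2 (-0.10) were not called. Cell type markers moved with the sets too: all 6 proximal tubule markers were called lower in the libraries with R, with a sum of 6476 to 8656 CPM there and 11454 to 13234 CPM in those without. Of 4 thick ascending limb markers 2 were lower, and of 3 distal convoluted tubule markers 2 were higher. Their part in the members' differences between the sets was not tested. The comparisons of the members, their ratios and the gene lists with wildtype were therefore repeated against either set.

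**Figure D1:**
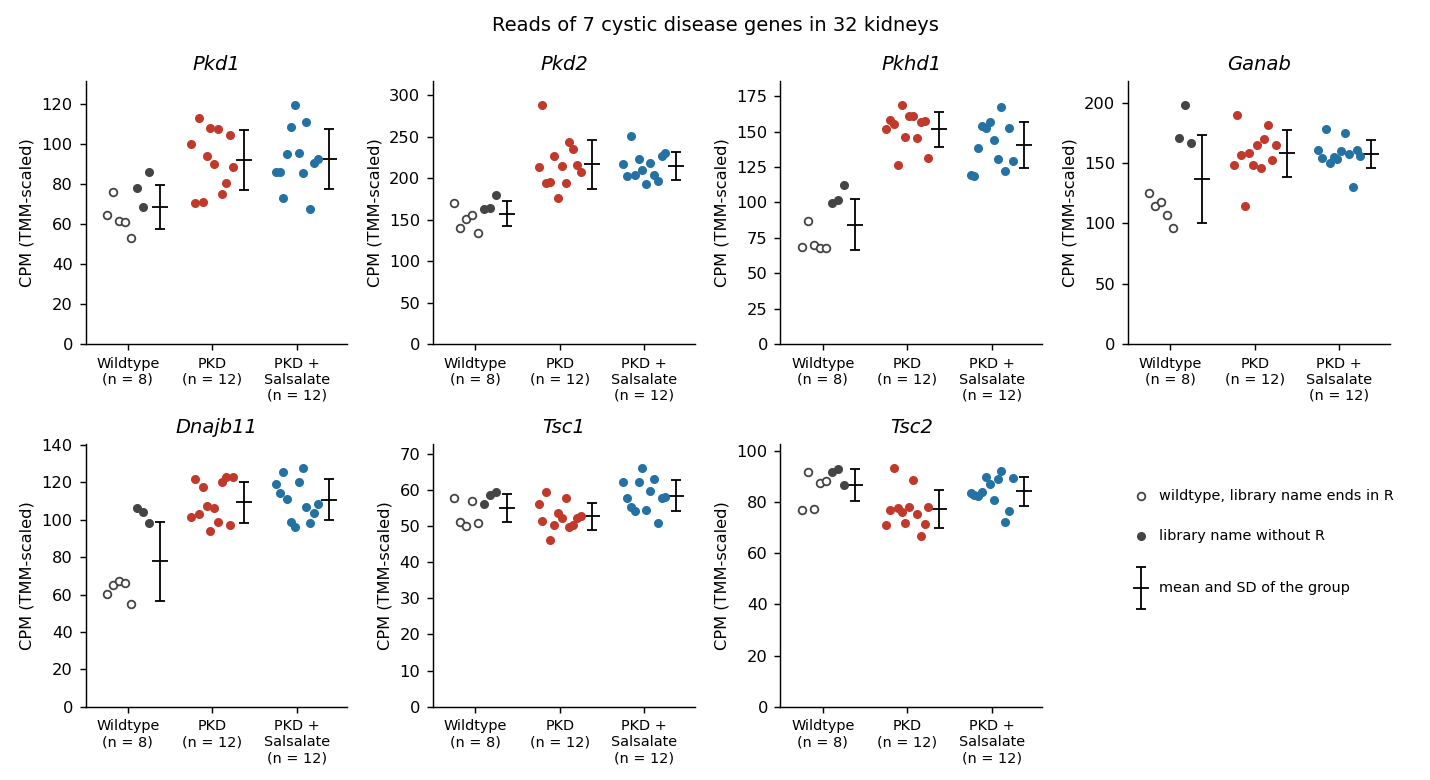
TMM-scaled CPM (y axis, from 0) of each gene in each kidney, by group (x axis); open points are the wildtype set with R, and the bars give the mean and SD of a group. The PKD and PKD + Salsalate points of Pkhd1 all lie above the highest wildtype kidney, at 112.1 CPM, whereas those of Tsc2 overlap with the wildtype points, and 6 PKD kidneys lie below all of them.

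Of the 7 members, 5 were called in PKD against wildtype, where 49.1% of all genes tested were called, so the share of members called says little by itself. Pkd1, Pkd2, Pkhd1 and Dnajb11 rose, where 24.1% of all genes were called higher. Tsc2 fell, where 25.0% of all genes were called lower. In PKD + Salsalate against wildtype 4 members were called, the same 4 that rose in PKD and none that fell. Of all genes tested 44.9% were called there, with 21.8% of all genes called higher and 23.2% called lower. With the 3 wildtype libraries without R as the reference, 3 members were called in PKD and 2 in PKD + Salsalate, where 40.8% and 34.9% of all genes tested were called. The median log2 fold change of the members was 0.42 in PKD and 0.43 in PKD + Salsalate, and that of all genes was -0.01 in both. Both comparisons use the same 8 wildtype kidneys. In whole kidneys, fewer cells of a type and less RNA per cell cannot be told apart.

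Pkd1, the deleted gene, was not lower in the mutant kidneys. In wildtype kidneys its level ran from 53.1 to 86.4 CPM with a median of 66.4, in PKD from 70.7 to 113.0 with a median of 92.2, and in PKD + Salsalate from 67.4 to 119.8 with a median of 91.6. All 12 PKD and all 12 PKD + Salsalate kidneys lay above the wildtype median, and 8 and 7 of them lay above every wildtype kidney, so the groups overlapped. The rise was 1.34-fold in PKD (log2 fold change 0.42, SE 0.11, 95% interval 0.21 to 0.64, adjusted p = 0.00134) and 1.35-fold in PKD + Salsalate (0.43, SE 0.11, adjusted p = 0.00129). Its call depended on the wildtype set, although Pkd1 was not called between the sets themselves (quasi-likelihood test, adjusted p = 0.122). Against the 5 libraries with R the rise was 0.54 (adjusted p = 0.000317) in PKD and 0.55 in PKD + Salsalate. Against the 3 libraries without R, which resemble the mutant libraries in name, it was 0.24 (95% interval -0.06 to 0.53, adjusted p = 0.197) and 0.25 (adjusted p = 0.188), and the call was lost. The SE in PKD was 0.145 there and 0.121 against the 5 libraries with R. The lost call alone therefore does not show that the sets differ in Pkd1.

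Pkd2, whose product is the channel partner of polycystin-1, rose in both mutant groups, and this call held against either wildtype set. Its level was 133.5 to 179.3 CPM in wildtype (median 159.4), 175.9 to 288.4 in PKD (median 213.8) and 193.3 to 251.1 in PKD + Salsalate (median 213.1). In PKD, 11 of 12 kidneys lay above every wildtype kidney, and in PKD + Salsalate all 12 did. Over all genes tested, 4.46% were separated in this way and direction in PKD + Salsalate. The fold was 1.38 in PKD (log2 fold change 0.47, SE 0.07, adjusted p = 2.47e-06) and 1.37 in PKD + Salsalate (0.45, SE 0.07, adjusted p = 5.62e-06). Against the 3 libraries without R the log2 fold changes were 0.35 (adjusted p = 0.00459) and 0.34 (adjusted p = 0.00690).

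Pkhd1, the gene of recessive disease, had the largest difference of the 7 members. Its level was 67.8 to 112.1 CPM in wildtype (median 78.3), 126.3 to 168.8 in PKD (median 156.2) and 118.8 to 167.5 in PKD + Salsalate (median 141.4). Every mutant kidney, treated or not, lay above every wildtype kidney, a separation in this direction that 5.21% of all genes showed in PKD. Pkhd1 was 1.80-fold higher in PKD (log2 fold change 0.85, SE 0.09, adjusted p = 3.01e-09) and 1.67-fold higher in PKD + Salsalate (0.74, SE 0.09, adjusted p = 6.37e-08). The size moved with the wildtype set, since the 3 wildtype kidneys without R held 99.2, 101.5 and 112.1 CPM and the 5 with R held 67.8 to 86.7. The log2 fold change was 1.07 in PKD and 0.96 in PKD + Salsalate against the libraries with R. Against those without R it was 0.53 (adjusted p = 5.87e-05) and 0.43 (adjusted p = 0.000788), which kept the call.

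**Figure D2:**
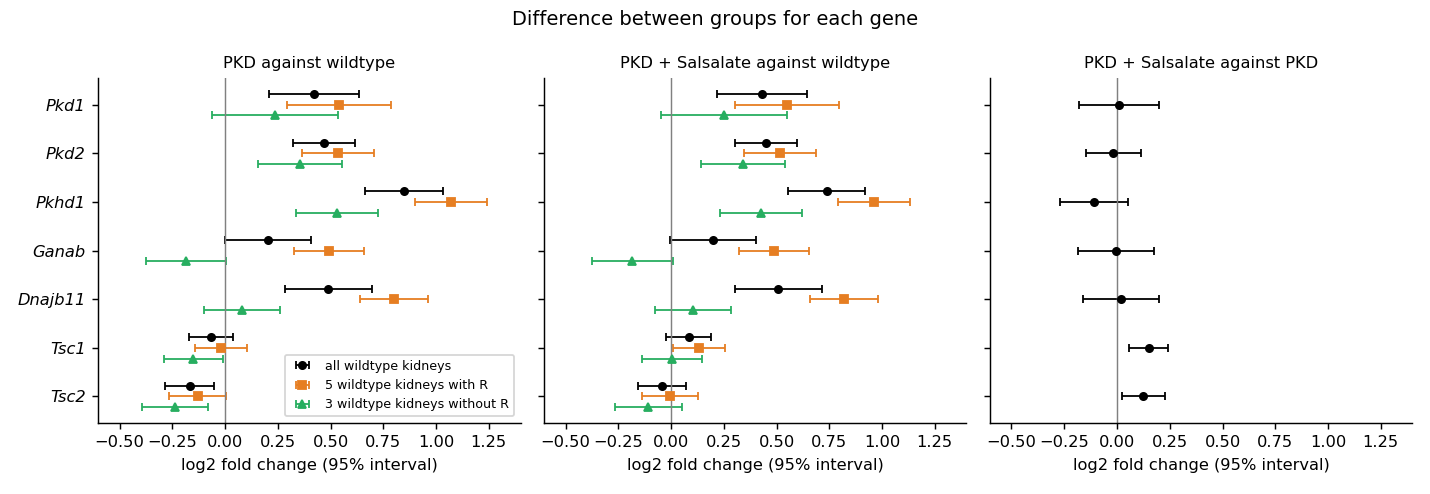
Log2 fold change (x axis) of each gene with its 95% interval, in the 3 comparisons; black circles use all wildtype kidneys, orange squares the 5 whose library names end in R and green triangles the other 3. Pkd2 and Pkhd1 stay to the right of the zero line with either set, whereas Ganab changes side, from 0.49 to -0.18 in PKD.

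A ratio of reads within a kidney does not depend on library size, and Pkd1 was set against Pkd2 in this way. The ratio of Pkd1 to Pkd2 reads had a median of 0.413 in wildtype (range 0.379 to 0.544), 0.424 in PKD (0.245 to 0.616) and 0.414 in PKD + Salsalate (0.291 to 0.572). The group means did not differ beyond the spread of the kidneys. In PKD against wildtype the log2 difference was -0.04 (exact permutation test, 2-sided, p = 0.790, adjusted p = 0.899 over 9 ratio comparisons). The spread within groups was wider in the mutants, with an SD of 0.39 on the log2 scale in PKD and 0.28 in PKD + Salsalate beside 0.18 in wildtype; this difference in spread was not tested. PKD replicate 2 showed it most: its Pkd1 level was the lowest of the group, at 70.7 CPM, and its Pkd2 level the highest, at 288.4 CPM. That library also had the most reads on genes in PKD, 47213530, and the lowest share outside annotated exons, 7.65%. Whether the ratio followed depth or that share over the kidneys was not tested.

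Dnajb11 and Ganab, the genes for maturation in the endoplasmic reticulum, had the widest wildtype spread of the members, and it followed the library names. Dnajb11 was at 54.8 to 67.5 CPM in the 5 wildtype libraries with R and at 98.3 to 106.3 in the 3 without. Its levels were 94.2 to 123.1 CPM in PKD (median 106.9) and 96.0 to 128.0 in PKD + Salsalate (median 109.7). The mutant kidneys thus overlapped with the wildtype libraries without R and lay above all 5 with R. Over all wildtype kidneys the log2 fold change was 0.49 in PKD (SE 0.10, adjusted p = 0.000174) and 0.51 in PKD + Salsalate (SE 0.10, adjusted p = 0.000136). With the set without R as the reference it was 0.08 (95% interval -0.10 to 0.26, adjusted p = 0.489) and 0.10 (adjusted p = 0.385), and against those with R 0.80 and 0.82. The rise of Dnajb11 therefore rested on the libraries with R.

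Ganab was at 96.4 to 125.1 CPM in the wildtype libraries with R and at 166.1 to 198.0 in those without. It was at 114.3 to 189.4 CPM in PKD (median 157.4) and at 130.3 to 177.9 in PKD + Salsalate (median 156.4), so that the PKD kidneys overlapped with both wildtype sets, and the PKD + Salsalate kidneys lay above all 5 libraries with R and overlapped with those without. It was not called in either comparison with all wildtype kidneys (log2 fold change 0.20, 95% interval -0.00 to 0.41, adjusted p = 0.0905 in PKD, and 0.20, adjusted p = 0.103 in PKD + Salsalate). Its direction turned with the set: 0.49 in both groups against libraries with R, and -0.18 in both (adjusted p = 0.113 and 0.130) against those without.

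The other genes of this step were read from a list of 8: the glucosidase II beta subunit Prkcsh, the translocon genes Sec63, Sec61b and Sec61a1, the glycosylation enzymes Alg5, Alg8 and Alg9, and the chaperone Hspa5. In PKD 6 of 8 rose and none fell, with a list median of 0.27, and in PKD + Salsalate 5 of 8 rose and none fell, with a median of 0.28; over all genes tested 24.1% and 21.8% were called higher. Alg8, which adds a glucose to the glycan precursor, had the largest log2 fold change (0.65, adjusted p = 6.17e-06 in PKD, and 0.55, adjusted p = 8.01e-05 in PKD + Salsalate). Sec63 (0.24 and 0.26) and Sec61a1 (0.32 and 0.34) were called in both. Hspa5, also known as BiP, was called in PKD (0.38, adjusted p = 0.0202) and not in PKD + Salsalate (0.30, adjusted p = 0.0757); the difference between the mutant groups was -0.09 (adjusted p = 0.888). Prkcsh (0.07 and 0.15) and Sec61b (-0.05 and 0.02) were not called. With the wildtype set without R as the reference, 1 gene of the 8 was called in either group, Alg8. Of all genes tested 40.8% were called in PKD and 34.9% in PKD + Salsalate with that reference.

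Tsc2 (GRCm39 chr17:24814783-24852192, minus strand) overlaps the downstream end of Pkd1 by 700 bp on the opposite strand. Reads were counted by strand, so the overlap need not mix the genes' counts. Its level was 76.8 to 93.1 CPM in wildtype (median 87.8), 66.9 to 93.5 in PKD (median 76.6) and 72.4 to 92.1 in PKD + Salsalate (median 83.7). Of the 12 PKD kidneys 10 lay below the wildtype median and 6 below every wildtype kidney, though PKD replicate 3 lay above them all. Tsc2 fell in PKD by a small amount, 0.890-fold (log2 fold change -0.17, SE 0.06, adjusted p = 0.0141). It was not called in PKD + Salsalate (-0.04, SE 0.06, adjusted p = 0.562), and the difference between the mutant groups was itself not called (0.13, 95% interval 0.02 to 0.23, adjusted p = 0.320). Against the libraries with R alone the PKD value was -0.13 (adjusted p = 0.0893) and against those without R -0.24 (adjusted p = 0.0139).

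Tsc1 was not called in any comparison. It was at 49.9 to 59.4 CPM in wildtype (median 56.6), 46.3 to 59.3 in PKD (median 52.1) and 50.8 to 66.2 in PKD + Salsalate (median 58.0), with wide overlap of the groups. The log2 fold change was -0.07 in PKD (95% interval -0.17 to 0.04, adjusted p = 0.293) and 0.08 in PKD + Salsalate (95% interval -0.02 to 0.19, adjusted p = 0.190).

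The balance of the neighbours Pkd1 and Tsc2 differed between the groups. The ratio of Pkd1 to Tsc2 reads was 0.602 to 0.999 in wildtype (median 0.811), 0.916 to 1.51 in PKD (median 1.21) and 0.886 to 1.37 in PKD + Salsalate (median 1.09). The ranges touched, but most mutant kidneys had more Pkd1 than Tsc2 reads and every wildtype kidney had fewer. The log2 difference was 0.59 in PKD (exact permutation test, 2-sided, p = 7.14e-05, adjusted p = 0.000357) and 0.47 in PKD + Salsalate (exact permutation test, p = 7.94e-05, adjusted p = 0.000357). With the wildtype set without R as the reference the differences were 0.47 and 0.35 (exact permutation p = 0.0132 in both, adjusted p = 0.0593), where the smallest p that the 455 splits allow is 0.00220. Between the mutant groups the ratio differed by -0.12 (permutation test with 100000 permutations, p = 0.190, adjusted p = 0.342). The ratio of Tsc1 to Tsc2 reads, the partners of one complex, had medians of 0.637, 0.668 and 0.687 in the 3 groups, and its differences from wildtype, 0.10 and 0.13, were not called (exact permutation test, adjusted p = 0.197 and 0.0566).

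**Figure D3:**
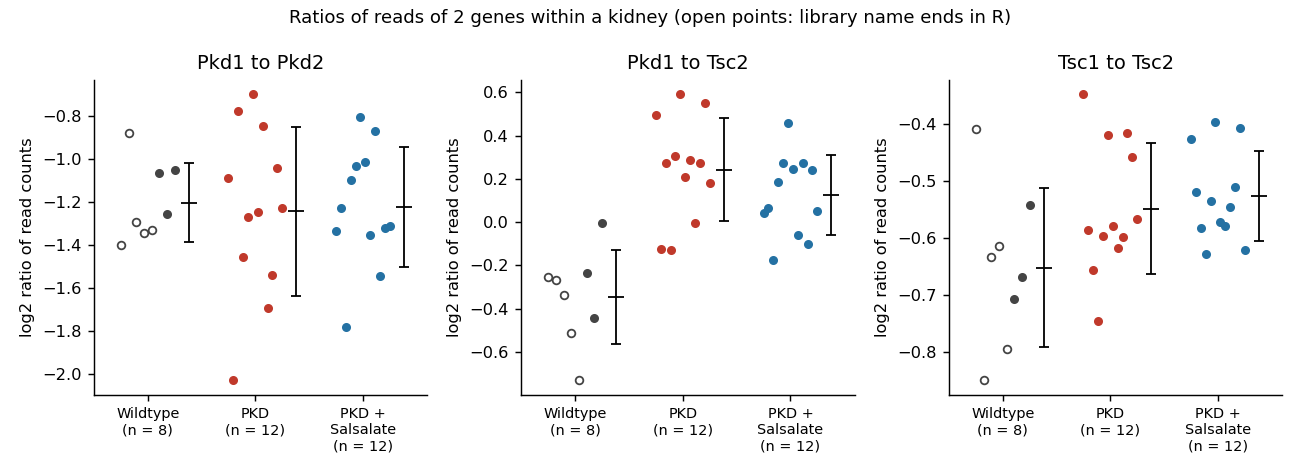
Log2 ratio of the read counts of 2 genes in the same kidney (y axis) by group (x axis), with the mean and SD of each group as bars and open points for the wildtype set with R. The ratio of Pkd1 to Tsc2 is higher in both mutant groups than in wildtype, with means of 0.24, 0.12 and -0.35, whereas the ratio of Pkd1 to Pkd2 has much the same mean in all 3 groups.

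Within 50 kb of the ends of Pkd1 the annotation has 11 genes, 9 of them in the count table, and 4 were tested: Traf7, Tsc2, Nthl1 and Nherf2. None rose, and 2 fell in PKD, Tsc2 and Nherf2, where 24.1% of all genes tested were called higher and 25.0% lower. Nherf2, a scaffold of apical membrane transporters 42.8 kb away, fell in PKD (log2 fold change -0.59, adjusted p = 1.37e-05) and in PKD + Salsalate (-0.53, adjusted p = 8.19e-05). With the 3 wildtype libraries without R as the reference, its values were -0.28 (adjusted p = 0.0400) and -0.21 (adjusted p = 0.136). The ubiquitin ligase gene Traf7 (-0.03 and 0.06) and the DNA glycosylase gene Nthl1 (-0.08 and 0.01) were not called. Caskin1, Rab26, Rab26os, Snord60 and Gm33508 had too few reads, and Gm65616 and Gm54763 had no row in the table. No tested neighbour rose with Pkd1, which with 4 genes tested says little beside the 24.1% of all genes called higher in PKD.

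Salsalate made no detectable difference to any member. In PKD + Salsalate against PKD none of the 7 was called, where 0.580% of all genes tested were called, 81 genes in all, and 1436 had an unadjusted p under 0.05. The log2 fold change was 0.01 for Pkd1 (95% interval -0.18 to 0.20), -0.02 for Pkd2 (-0.15 to 0.11), -0.11 for Pkhd1 (-0.27 to 0.05), -0.00 for Ganab (-0.19 to 0.18) and 0.02 for Dnajb11 (-0.16 to 0.20). The smallest p-values were those of the TSC genes. Tsc1 was 1.11-fold higher in the treated kidneys (log2 fold change 0.15, 95% interval 0.06 to 0.24, adjusted p = 0.130), and 11 of 12 treated kidneys lay above the PKD median. Tsc2 was 1.09-fold higher (0.13, adjusted p = 0.320), again with 11 of 12 above the PKD median. Pkhd1 leaned the other way, with 10 of the 12 kidneys below the median of PKD. None of these held after correction for the number of genes tested.

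The other genes around the TSC complex were read from a list of 12 of the mTORC1 pathway. In PKD 2 of 12 rose and 4 fell, with a list median of -0.03, and in PKD + Salsalate 2 rose and 3 fell, with a median of -0.01. Over all genes tested 24.1% were called higher and 25.0% lower in PKD, and 21.8% and 23.2% in PKD + Salsalate. Rictor, the defining subunit of the sister complex mTORC2, rose (log2 fold change 0.56, adjusted p = 5.92e-05, and 0.58, adjusted p = 4.13e-05). Eif4ebp1, the translation repressor that mTORC1 phosphorylates, rose as well (0.44, adjusted p = 0.000161, and 0.59, adjusted p = 2.90e-06). Deptor, an inhibitor within the complex, fell (-0.43, adjusted p = 0.000574, and -0.41, adjusted p = 0.00117), and so did the S6 kinase genes Rps6kb2 (-0.21, adjusted p = 0.00805, and -0.16, adjusted p = 0.0467) and Rps6kb1 (-0.37, adjusted p = 0.0136, and -0.43, adjusted p = 0.00446). The call of Rps6kb2 in PKD + Salsalate was marginal: it was lost in 20 of 32 fits with a kidney left out and held in 3 of 10 other settings. Mtor itself fell in PKD (-0.31, adjusted p = 0.0462) and was not called in PKD + Salsalate (-0.29, adjusted p = 0.0649). Rps6kb1 and Mtor were named after their values were seen. Rps6kb1 was higher in the wildtype libraries with R than in those without (0.93, adjusted p = 4.86e-07), and Mtor was lower (-0.55, adjusted p = 0.0127). The fall of Rps6kb1 against all wildtype kidneys includes this difference between the sets. Values of Rps6kb1 and Mtor against the libraries without R alone are not given here. With the wildtype set without R as the reference, Deptor was at 0.02 and 0.05 and neither it nor Rictor was called. Eif4ebp1 was called in both groups (0.34, adjusted p = 0.0224, and 0.50, adjusted p = 0.00161), and Rps6kb2 in PKD only (-0.22, adjusted p = 0.0258). Of the 12 genes, 8 were called in PKD and 6 in PKD + Salsalate with this reference, beside 40.8% and 34.9% of all genes tested. No gene of the list was called in PKD + Salsalate against PKD.

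Among 17 other genes of cystic or nephronophthisis-type kidney disease, 7 rose and 4 fell in PKD (median 0.06) and 6 rose and none fell in PKD + Salsalate (median 0.05), beside 49.1% and 44.9% of all genes called in either direction. Glis2, a zinc-finger repressor mutated in nephronophthisis, was the highest (log2 fold change 0.83, adjusted p = 8.53e-09, and 0.82, adjusted p = 1.46e-08), close to Pkhd1 in size. Cys1, the ciliary protein lost in the cpk mouse, rose by 0.46 (adjusted p = 2.99e-07) and 0.41 (adjusted p = 2.77e-06). Dzip1l, the second gene of recessive polycystic disease, rose by 0.43 (adjusted p = 5.55e-05) and 0.37 (adjusted p = 0.000372), and Flcn, the folliculin gene of Birt-Hogg-Dube disease, by 0.23 (adjusted p = 0.00392) and 0.16 (adjusted p = 0.0487). The Flcn call in PKD + Salsalate was lost in 21 of 32 fits with a kidney left out and held in 4 of 10 other settings. With the wildtype set without R as the reference, Glis2 (0.48 and 0.48) and Cys1 (0.23 and 0.18) were called, whereas Dzip1l (0.10 and 0.05) and Flcn (0.01 and -0.06) were not. None of the 17 was called in PKD + Salsalate against PKD. Of 6 relatives of the polycystins, only Pkd2l2 had enough reads, with a median of 2.13 CPM in wildtype. It was at -0.32 in PKD (adjusted p = 0.0638) and fell in PKD + Salsalate (-0.43, adjusted p = 0.0140), a call lost with the wildtype set without R as the reference (-0.42, adjusted p = 0.0987); the difference between the mutant groups was -0.11 (adjusted p = 0.845). The highest level of the remaining relatives, Pkd1l1, Pkd1l2, Pkd1l3, Pkdrej and Pkd2l1, in any kidney was 0.519 CPM.

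**Figure D4:**
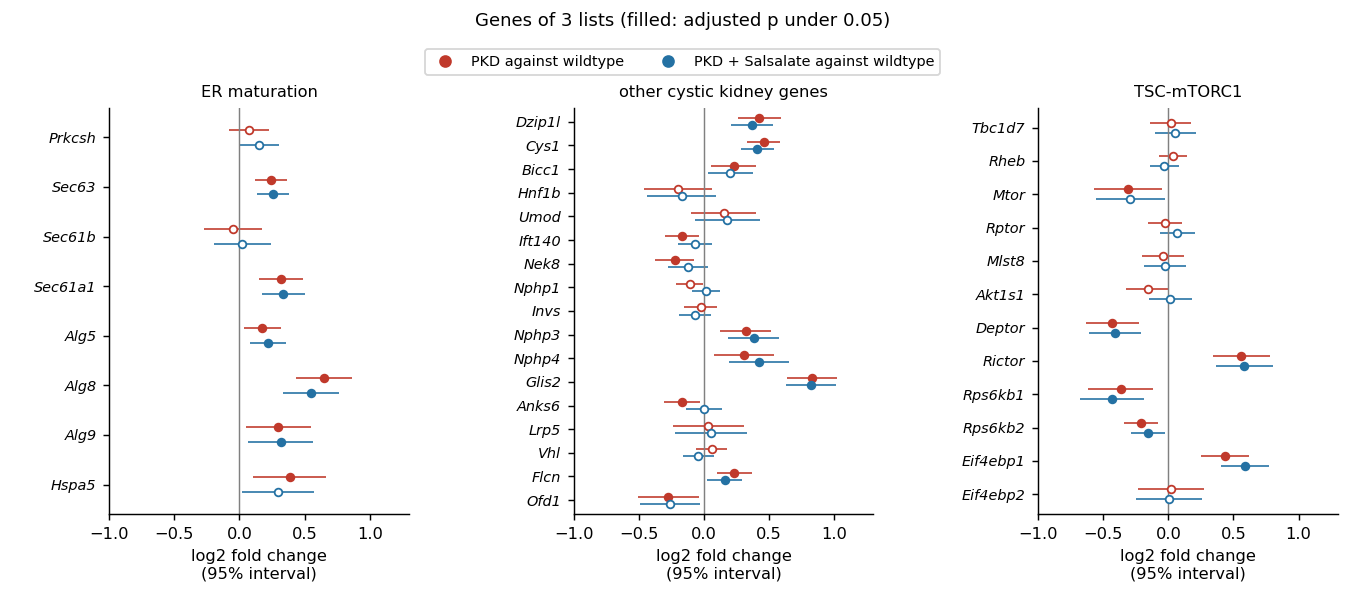
Log2 fold change against wildtype (x axis) with its 95% interval for the tested genes of 3 lists, in PKD (red) and PKD + Salsalate (blue), filled where the adjusted p was under 0.05. In the list for maturation in the endoplasmic reticulum 6 of 8 genes rose in PKD, whereas the mTORC1 list has called genes on both sides of the zero line. Of all genes tested 24.1% were called higher and 25.0% lower in PKD. All wildtype kidneys are the reference here. With the set without R, 1 of the 8 genes was called in PKD, beside 40.8% of all genes tested.

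Compared per length, the members' transcripts differed in abundance, Pkd1 being among the scarcest. On the scale of CPM per kilobase of merged exons, wildtype means were 22.9 ± 6.10 for Ganab, 21.2 ± 5.80 for Dnajb11, 9.36 ± 0.910 for Pkd2, 8.37 ± 0.613 for Tsc2, 5.89 ± 1.26 for Pkhd1, 3.94 ± 0.625 for Pkd1 and 3.81 ± 0.268 for Tsc1 (SD, n = 8). The ranges of neighbours in this order overlapped in wildtype, except between Dnajb11 and Pkd2. In PKD the order changed in that Dnajb11 (29.9 ± 2.99) came before Ganab (26.4 ± 3.21) and Pkhd1 (10.6 ± 0.869) before Tsc2 (7.45 ± 0.716; SD, n = 12). The order in PKD + Salsalate was that of PKD. Merged exons count the exons of every annotated transcript. With the canonical transcript's length, chosen after the data were seen, Pkd1 was the lowest in all 3 groups, at 4.85 ± 0.768 CPM per kilobase in wildtype and 6.50 ± 1.07 in PKD, and its range overlapped with that of the next gene in each.

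**Figure D5:**
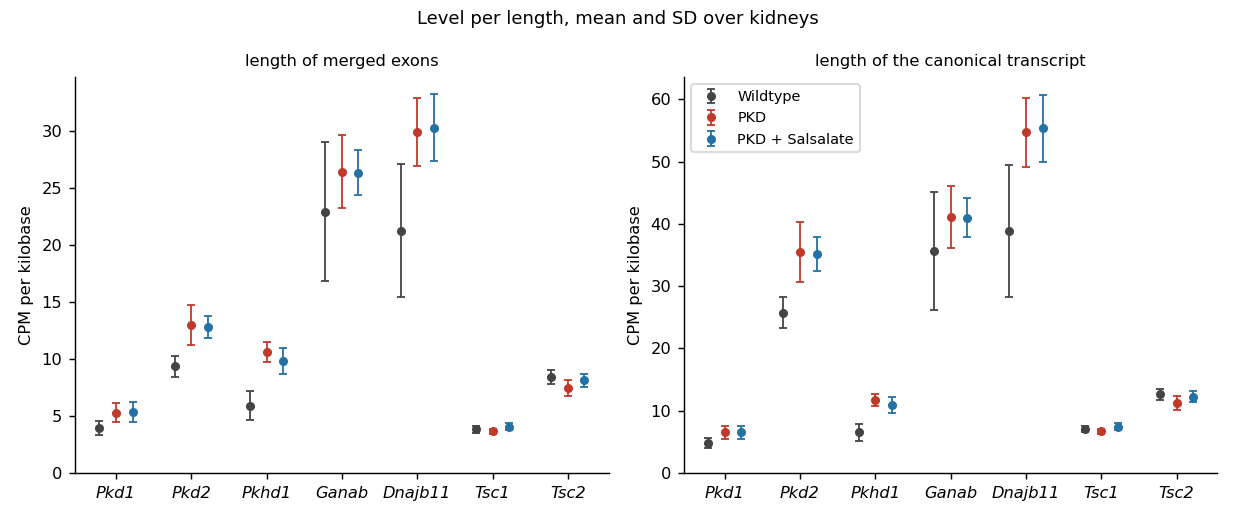
CPM per kilobase (y axis, from 0) of each gene by group, as the mean with SD over 8 or 12 kidneys, with the length of merged exons on the left and of the canonical transcript on the right. Dnajb11 and Ganab are the highest with either length. Pkd1 and Tsc1 lie at the bottom, except that with the canonical length Pkhd1 (6.51) lies below Tsc1 (6.98) in wildtype.

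Across the 32 kidneys, with the mean of each of 4 sets taken off (the wildtype sets with and without R, PKD and PKD + Salsalate), the members did not vary as a unit. Pkd1 varied with Tsc1 (r = 0.67) and Pkhd1 (r = 0.60), less with Tsc2 (r = 0.39), against Dnajb11 (r = -0.50) and Pkd2 (r = -0.36), and hardly with Ganab (r = -0.03). Pkd2 varied with Ganab (r = 0.64) and Dnajb11 (r = 0.43). These are descriptions over kidneys that share library preparation and scaling. Among 13960 other genes, those most like Pkd1 were Mapk8ip3 (r = 0.94), a scaffold of JNK signalling, Ocrl (r = 0.94), the inositol phosphatase of Lowe syndrome, and Sned1 (r = 0.93). Those most like Pkd2 were Enpep (0.87), the aminopeptidase of the proximal tubule brush border, Asph (0.86) and Mpzl2 (0.86). Pkhd1 was most like Ankrd16 (0.76), the chloride channel gene Ano1 (0.73) and Fras1 (0.73). Dnajb11 was most like Rpn1 (0.86), Pdia6 (0.85) and Calr (0.84), all of which act on folding or glycosylation in the endoplasmic reticulum. Ganab was most like Ankle2, Aga and Laptm4b (0.86 to 0.88), Tsc1 like Golga2, Zc3h4 and Dlg5 (0.73 to 0.75) and Tsc2 like Dgkz, Atg2a and Mroh1 (0.82 to 0.86).

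The makeup of the kidneys also moved with the groups, and its part in the members' differences was not tested. Cdh16, the Ksp-cadherin gene whose promoter drives the Cre, was steady, at 790.2 to 1020 CPM in wildtype, 762.6 to 1076 in PKD and 727.4 to 987.3 in PKD + Salsalate. Of 6 proximal tubule markers 1 rose and 1 fell in PKD against all wildtype kidneys. Their sum was 7468 to 10468 CPM in PKD and 7121 to 9488 in PKD + Salsalate. These ranges lay below that of the wildtype libraries without R (11454 to 13234 CPM) and overlapped with that of the libraries with R (6476 to 8656 CPM). All 3 markers of the distal convoluted tubule fell, from a summed 994.1 to 1274 CPM in wildtype to 431.0 to 647.9 in PKD and 475.6 to 675.0 in PKD + Salsalate. All 4 fibroblast markers rose, from a sum of 224.9 to 335.7 CPM to 593.7 to 1104 and 560.2 to 1415, and so did all 3 tested leukocyte markers, from 14.1 to 36.8 CPM to 46.4 to 74.7 and 42.4 to 84.3. All 5 markers of injured or dividing tubule rose, from 10.3 to 20.3 CPM to 106.9 to 228.8 and 73.0 to 299.8. Of 6 collecting duct markers 1 rose in PKD and 2 fell, the intercalated cell genes Slc4a1 (log2 fold change -1.46) and Atp6v1b1 (-1.10). In PKD 1 of 4 thick ascending limb markers fell, all 4 podocyte markers fell, and 2 of 4 endothelial markers rose and 1 fell. The thick ascending limb sum was 733.5 to 1021 CPM in PKD and 781.2 to 1122 in PKD + Salsalate. It too lay below the wildtype libraries without R (1133 to 1275 CPM) and overlapped with those with R (764.2 to 1053 CPM). Of 5 liver markers tested 3 were called higher in PKD and none in PKD + Salsalate. The median of the liver marker sum was nevertheless lower in PKD, at 88.9 CPM, than in wildtype, at 139.1 CPM. In PKD + Salsalate it was 93.7 CPM. The sum reached 3423 CPM in PKD replicate 10, which was left out in turn without loss of a member's call.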

How the data were processed

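RNA of 32 mouse kidneys was sequenced after poly-A selection with a strand-specific kit. The deposited values are raw read counts per gene, which the authors made by trimming with cutadapt 2.10, aligning with STAR 2.7.5a to GRCm39 and counting by strand with HTSeq 0.12.4 on Ensembl genes (versions as in the submitters' processing notes). HTSeq's 5 summary lines were left out (the rest, 73.6% to 83.1% of reads, lay on genes). Nothing says that replicates share anything beyond their group, so each mouse was 1 sample.

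Genes with log2 CPM over 1 in at least 25% of kidneys were kept, scaled by TMM and fitted as 3 groups with edgeR 4.0.16 (R 4.3.3, quasi-likelihood, 2-sided, Benjamini-Hochberg). Wildtype sets were compared in a fit of 4 sets. Ratios of counts were tested by exact permutation (2-sided), with 100000 permutations where both groups had 12 kidneys. The fit was tested on simulated data. Alternatives used DESeq2 1.42.0, limma 3.58.1, other scaling and filters, and fewer kidneys. Gene symbols and coordinates came from GENCODE vM39 on GRCm39, which held 52610 of the 53700 genes. Library totals set the counting precision; each member had at least 497 reads in every kidney. No pair of libraries within a group agreed within sampling noise. The members, lists, motifs and tests were chosen with earlier results of these data known. Named genes were the members, the 4 genes of smallest p in each list (all of lists up to 8), every gene within 50 kb of Pkd1 and the 3 genes most like each member; genes mentioned beyond these were chosen after their values were seen.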

Additional observations from a re-analysis of the deposited data

Results flagged for a closer look

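Dixon's test was applied to the 7 members and 3 ratios in the 8 wildtype kidneys and in the 5 wildtype kidneys whose library names end in R, 20 groups in all, of which chance alone flags about 1 in 20. Wildtype replicate 2 stood apart in 2 of them, both within the 5 kidneys with R. Its Pkhd1 level was 86.7 CPM, above the other 4 (67.8 to 69.9 CPM). Its log2 ratio of Pkd1 to Pkd2 reads was -0.88, above the others (-1.40 to -1.29). Neither value stood apart among all 8 wildtype kidneys.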

How the results depend on the processing

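Depth was no limit for the members, which had at least 497 reads in every kidney; the wildtype reference was. The other settings were run for each comparison with wildtype, and each kidney was left out in turn. Of 196 member fold changes under other settings 179 kept direction and call, and of 672 with a kidney left out 648 did. Except for the wildtype sets, the cause of a change was not tested.

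With the wildtype libraries without R alone, 3 members were called in PKD and 2 in PKD + Salsalate, beside 40.8% and 34.9% of all genes tested. Pkd1 was at 0.24 and 0.25, Dnajb11 at 0.080 and 0.10 and Ganab at -0.18 in both. Sec61a1 was at -0.028 and -0.0045, Deptor at 0.017 and 0.046, and in PKD + Salsalate Flcn at -0.056 and Nthl1 at -0.064. The log2 ratio of Pkd1 to Tsc2 differed by 0.47 and 0.35 (exact permutation, adjusted p = 0.0593), and 1 of 8 endoplasmic reticulum genes was called in either group. With those with R alone, Ganab was at 0.49 in both (called), Tsc2 in PKD at -0.13 (not called) and the ratio of Pkd1 to Pkd2 at 0.0055 and 0.024.

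Ganab in PKD was called with upper-quartile factors (0.23, adjusted p = 0.0425) and limma-voom (0.24, adjusted p = 0.0450), and in PKD + Salsalate with limma-voom (0.25, adjusted p = 0.0454). With kidneys left out it ran from 0.14 to 0.30 and from 0.14 to 0.29, and was called in PKD without wildtype replicate 6, 7 or 8 or PKD replicate 4, and in PKD + Salsalate without wildtype replicate 6 or 7. Tsc2 in PKD was -0.15 with no filter (adjusted p = 0.0692). Of the 17 other cystic genes, 11 were called in PKD, 7 with no filter and 6 with only the 2 groups compared. Over all genes tested, 6852 of 13961, 7906 of 33588 and 6093 of 14088 were called in these settings. Nthl1 in PKD + Salsalate was -0.0030 with DESeq2 size factors, -0.018 with the DESeq2 Wald test, -0.011 with limma-voom and -0.046 to 0.035 with kidneys left out, and Traf7 in PKD ran from -0.047 to 0.0088.

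In PKD + Salsalate against PKD, 81 genes were called, 199 by DESeq2, 146 by limma-voom and 195 with only the 2 groups compared, and 39 (without PKD + Salsalate replicate 5) to 226 (without PKD + Salsalate replicate 11) with kidneys left out; no member was called under any other setting. Ganab there was 0.0012 with DESeq2 size factors, 0.0012 with the Wald test and 0.0046 with limma-voom. With kidneys left out the ranges were -0.030 to 0.044 for Pkd1, -0.041 to 0.027 for Pkd2, -0.040 to 0.022 for Ganab and -0.0025 to 0.035 for Dnajb11.

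By medians, the log2 ratio of Pkd1 to Pkd2 differed by 0.037 in PKD, 0.0038 in PKD + Salsalate and -0.033 between them, and that of Tsc1 to Tsc2 in PKD + Salsalate by 0.11 (adjusted p = 0.0387). With kidneys left out the former ran from -0.090 to 0.031, -0.060 to 0.028 and -0.053 to 0.069, and the latter from 0.075 to 0.14 in PKD and 0.097 to 0.16 in PKD + Salsalate. With the canonical transcript's length, an alternative chosen after seeing the data, wildtype levels per kilobase were 38.9 for Dnajb11, 35.7 for Ganab, 25.7 for Pkd2, 12.6 for Tsc2, 6.98 for Tsc1, 6.51 for Pkhd1 and 4.85 CPM for Pkd1.

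Replicate numbers did not pair the kidneys: over 28 same-number pairs the median correlation of deviations was -0.05, and 3 of 32 kidneys correlated best with their own number. With a replicate block 5839, 5392 and 48 genes were called in the 3 comparisons, 3 of 8 endoplasmic reticulum genes in PKD, and Ganab in PKD + Salsalate against PKD was at 0.00066.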
